A study of Glycine max with 8 samples.

Results

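This report describes 150 soybean genes whose transcripts were more abundant in the nodule libraries R1 and R2 than in the nodule libraries R3 and R4, although all 4 of these libraries carry the same treatment label. Nodules of soybean (Glycine max) were sequenced from plants at low nitrogen that were inoculated with Bra.Q2 and Bac.B (BR, 4 libraries, BR1 to BR4) or with Bra.Q2 alone (R, 4 libraries, R1 to R4). Low nitrogen and Bra.Q2 were thus common to both groups. The labels do not say what the strain codes stand for or how old the plants were. They also do not say that replicates are separate plants, so p-values rest on the spread between libraries, and that spread may be technical.

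The members were chosen by expression in the R libraries. Counts were scaled to a common library total (CPM). Of the 43517 genes in the table, 19405 had a mean of at least 5 CPM over the 8 libraries. For each of these a score was taken as the log2 ratio of the lower value of R1 and R2 to the higher value of R3 and R4, after adding 1 CPM to both. The 150 genes with the highest scores are the members, and they are numbered here by rank, with member 1 the highest. The differences among the R libraries therefore define the set and are given as a description without a test. Where the BR libraries lay was not used in the choice, apart from their part in the mean of at least 5 CPM.

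Root nodules are organs in which the plant houses rhizobia inside its own cells. The bacteria reduce nitrogen gas to ammonium, and the plant supplies them with carbon compounds and takes up the fixed nitrogen. Nodules also hold uninfected cells, a cortex and vascular tissue, and their transcripts change as the organ matures and ages. The deposited identifiers are not paired with gene names or functions in the sources used here, so no role is given to any member and nodule markers could not be checked; identifiers are printed for 4 members.

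The R libraries fell into unlike pairs in a property other than these genes as well. Relative to the mean of the 8 libraries, the slope of log2 CPM on log2 gene length was 0.157 in R3 and 0.158 in R4. It was -0.0501 in R1 and -0.0572 in R2, and -0.156, 0.0163, -0.00726 and -0.0605 in BR1 to BR4. BR1 thus departed from the mean about as far as R3 and R4, in the other direction. R3 and R4 thus carried relatively more reads from long genes than the other 6 libraries did. Totals were 15133989 to 17287964 counts in BR and 14223489 to 15266510 counts in R.

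As a group, the members stood low in R3 and R4, as chosen, highest in R2, and in between in R1 and the BR libraries. Their median level was 12.5, 16.2, 19.4 and 18.9 CPM in BR1 to BR4, 18.5 and 28.2 CPM in R1 and R2, and 3.45 and 3.2 CPM in R3 and R4. The median over all 19405 genes lay between 15.5 and 17.9 CPM in every library. The members together took 1.87% to 2.4% of the counts of the BR libraries. They took 2.23% of R1 and 3.23% of R2, but 0.61% of R3 and 0.517% of R4. In whole nodules, fewer cells of a type that carries a transcript and less of that transcript per cell cannot be told apart.

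**Figure D1:**
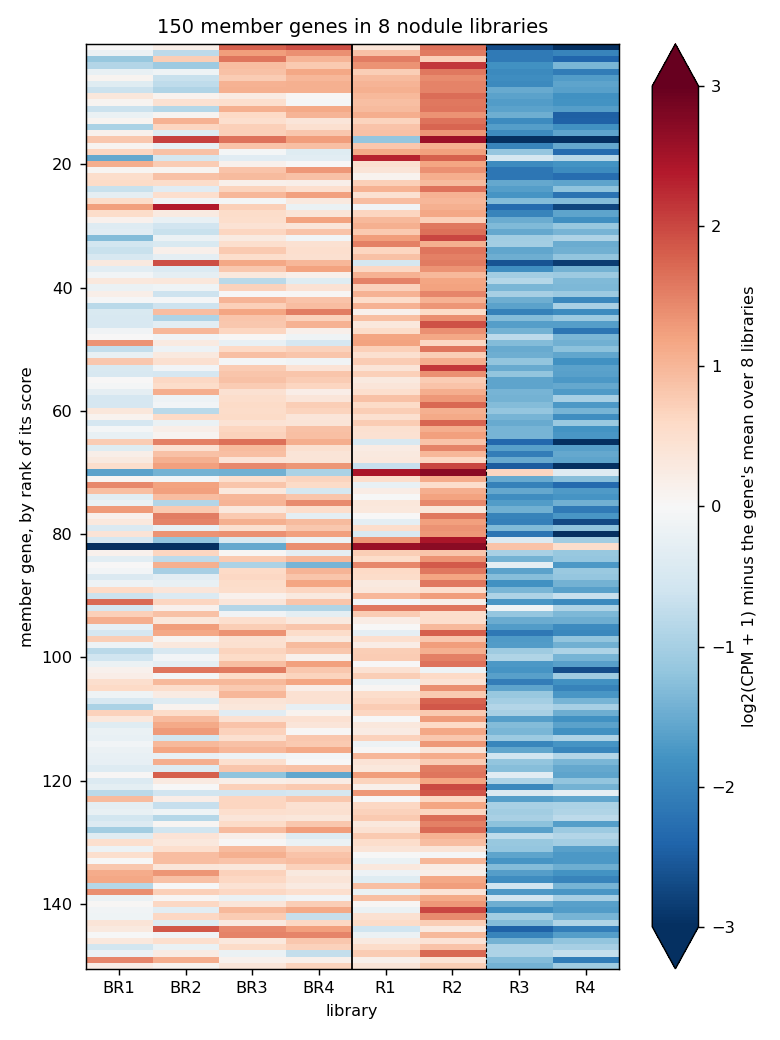
Heat map of the 150 members (rows, by rank of the score) in the 4 BR and 4 R libraries (columns); colour is log2(CPM + 1) minus the gene's mean over the 8 libraries. R3 and R4 are blue in most rows, as the choice of members requires, and most rows of the BR libraries have lighter shades or red. Member 70 shows as a row with low values in all 4 BR libraries, and member 82 as one with low values in BR1, BR2 and BR3.

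Scores of the members ran from 1.46 to 3.07 with a median of 1.77, so that the lower of R1 and R2 exceeded the higher of R3 and R4 by 2.75-fold to 8.39-fold, 1 CPM being added throughout. The end of the list was not a step in the data. Members 149 and 150 scored 1.472 and 1.459, and the genes at ranks 151 and 152, just outside, scored 1.457 and 1.455.

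The member with the highest score was Glyma.06G084200.Wm82.a2.v1, on chromosome 6, where the chromosome is read from the identifier. It had 27, 30.4, 94.2 and 105 CPM in BR1 to BR4, and 35.7 and 85 CPM in R1 and R2, against 3.37 and 1.98 CPM in R3 and R4. All 4 BR libraries and both R1 and R2 lay above R3 and R4, and the BR range of values enclosed R1 and R2. Averages were 64.3 ± 41.4 CPM in BR and 31.5 ± 38.9 CPM in R (SD, n = 4 each), and the difference did not pass the test (log2 fold change 0.82, SE 0.96; edgeR adjusted p = 0.586).

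Member 2, Glyma.08G359100.Wm82.a2.v1 on chromosome 8, had 11.8 and 7.29 CPM in BR1 and BR2 and 33.2 and 36.5 CPM in BR3 and BR4. Its R values were 25.3 and 41.5 CPM in R1 and R2 and 2.32 and 2.66 CPM in R3 and R4. BR3 and BR4 lay between R1 and R2, whereas BR1 and BR2 lay between the R pairs. Its average was 22.2 ± 14.8 CPM in BR and 18 ± 19.1 CPM in R (SD, n = 4 each; log2 fold change 0.09, SE 0.85; edgeR adjusted p = 0.952).

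Several other members near the top of the list also had BR3 and BR4 above BR1 and BR2. Member 4, on chromosome 11, had 10.2, 8.62, 38.3 and 34.3 CPM in BR1 to BR4, 51.0 and 87.9 CPM in R1 and R2, and 4.85 and 6.95 CPM in R3 and R4. Member 8, on chromosome 2, had 7.0, 5.73, 25.3 and 25.1 CPM in BR1 to BR4, 25.3 and 34.4 CPM in R1 and R2, and 3.37 and 3.07 CPM in R3 and R4. Member 11, on chromosome 3, had 7.07, 5.9, 25.3 and 26.6 CPM in BR1 to BR4, 23.1 and 36.8 CPM in R1 and R2, and 3.09 and 3.0 CPM in R3 and R4. In these members BR1 and BR2 were the lowest libraries after R3 and R4.

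Others were even across BR. Member 9, on chromosome 18, had 15.9, 13.2, 14.8 and 12.6 CPM in BR1 to BR4, 25.2 and 41.7 CPM in R1 and R2, and 3.37 and 2.79 CPM in R3 and R4. All 4 BR libraries lay in the gap between the R pairs. Member 10, on chromosome 2, did the same with 14.2, 18.7, 19.5 and 13.0 CPM in BR1 to BR4, 25.9 and 42.2 CPM in R1 and R2, and 3.52 and 3.13 CPM in R3 and R4.

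Low counts limited some values. Member 3, on chromosome 20, had 1.52, 8.33, 15.9 and 10.3 CPM in BR1 to BR4 and 15.2 and 8.09 CPM in R1 and R2. It had 4 counts in R3 and 1 count in R4, so that the size of its difference was poorly measured. Of the 150 members, 5 had fewer than 10 counts in R3 and 4 in R4, and 0 had no counts in a library.

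**Figure D2:**
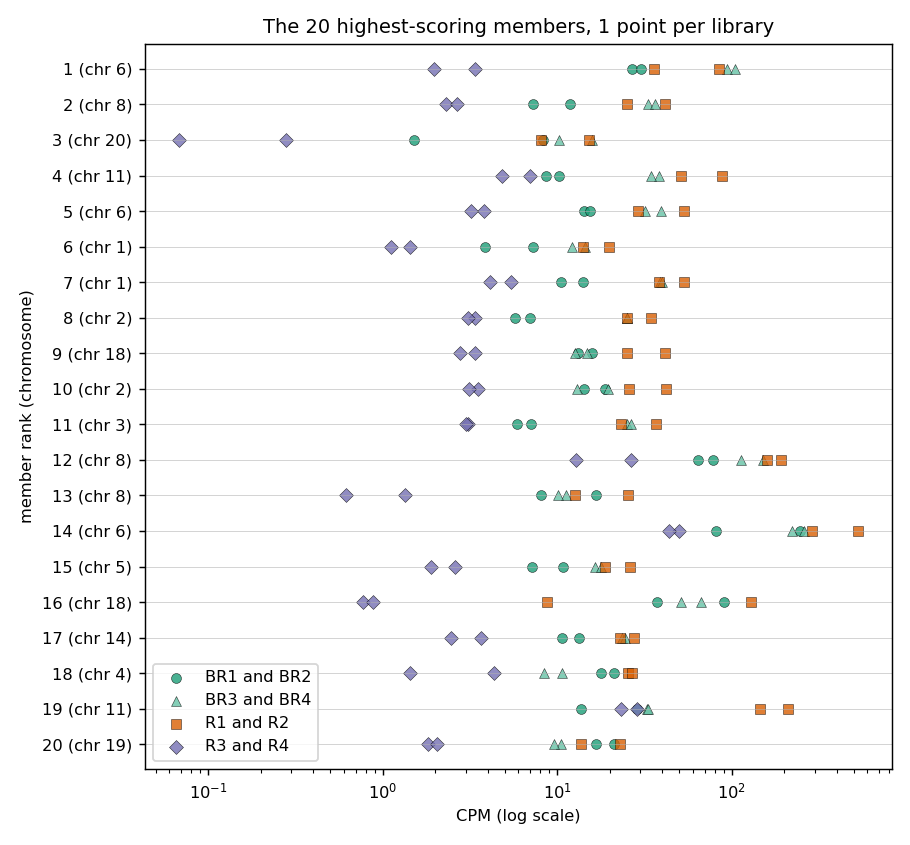
Levels of the 20 highest-scoring members in CPM on a log axis, with 1 point per library and the chromosome beside the rank. R3 and R4 lie to the left of R1 and R2 in every row, as the score requires; the BR libraries lie to the right of R3 and R4 in 19 of the rows, and in member 19 BR1 lies to the left of them.

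The position of the BR libraries is what the choice of members left free. In 138 of 150 members (92.0%), all 4 BR libraries lay above the higher of R3 and R4. Over all 19405 genes this was so in 32.8%, and over the 5063 genes in which both R1 and R2 exceeded both R3 and R4 it was so in 67.0%. The lowest BR library exceeded the higher of R3 and R4 by a median log2 ratio of 1.1, or 2.15-fold with 1 CPM added, compared with a median score of 1.77. The choice of genes with low R3 and R4 favours this position, and how far it accounts for the count was not tested.

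The BR libraries lay below R1 and R2 less uniformly. In 47 members (31.3%), all 4 BR libraries were under the lower of R1 and R2, against 13.4% of all genes and 18.7% of those with both R1 and R2 above both R3 and R4. In 36 of the 47 the BR libraries were also above R3 and R4, so that they filled the gap between the pairs, an arrangement seen in 0.814% of all genes and 3.12% of those with the same order of pairs. The gap is wide in the members by choice. In 102 members (68.0%) all BR libraries lay above R3 and R4 and at least 1 BR library reached the range of R1 and R2. This was so in 32.0% of all genes and in 63.8% of those with the same order of pairs, near the share of members. TMM scaling gives the BR libraries larger effective sizes than the R libraries, which lowers BR relative to R in every gene. With it, 132 of the 150 members had all BR libraries above R3 and R4, 66 had them below R1 and R2, and 51 had them in the gap. The shares of all genes under TMM are not given here, so these counts are not read as a result about the members.

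**Figure D3:**
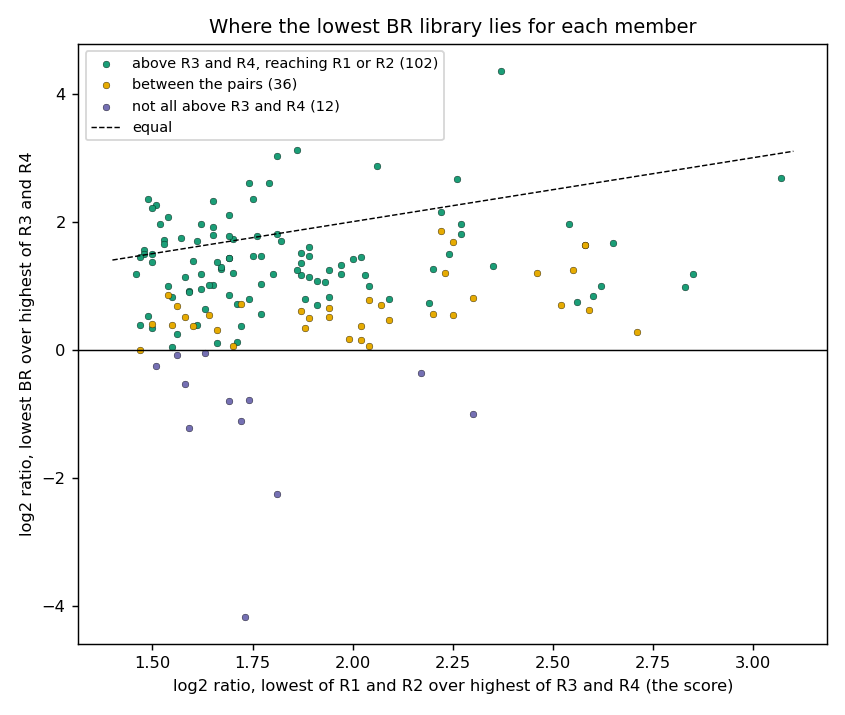
Each point is a member; the x axis is the score and the y axis the log2 ratio of the lowest BR library to the higher of R3 and R4, with 1 CPM added to both. In 138 members the point lies above 0, and 36 of these (gold) had all BR libraries between the R pairs; the dashed line marks equal ratios.

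Measured library by library, BR3 and BR4 reached the level of R1 more often than BR1 and BR2 did. On a scale with 0 at the higher of R3 and R4 and 1 at the lower of R1 and R2, taken in log2(CPM + 1), the median member stood at 0.68 and 0.82 in BR1 and BR2 and at 1.02 and 1.04 in BR3 and BR4. BR3 reached the lower of R1 and R2 in 82 members and BR4 in 81, against 39 for BR1 and 57 for BR2. The number of members at or below the higher of R3 and R4 was between 5, in BR4, and 9, in BR1.

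The members also varied among the BR libraries, which played no part in the score. Both BR3 and BR4 were above both BR1 and BR2 in 79 members (52.7%), compared with 21.6% of all genes. The reverse, with BR1 and BR2 above the other two, occurred in 22 members (14.7%) and in 16.1% of all genes. BR1 was the lowest BR library in 78 members (52.0%), against 33.1% of all genes, and its median deviation from the BR mean was -0.48 on the log2 scale, compared with 0.28 in BR3. The corresponding medians over all genes were -0.02 and 0.02. Among the 79 members, the lower of BR3 and BR4 exceeded the higher of BR1 and BR2 by a median of 1.61-fold with 1 CPM added. In 72 of the 79, all BR libraries were nevertheless above R3 and R4. The median SD of log2(CPM + 1) among the BR libraries was 0.543 for members and 0.202 for all genes. It was 0.349 for the 150 genes chosen by the same rule turned round, higher in R3 and R4.

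**Figure D4:**
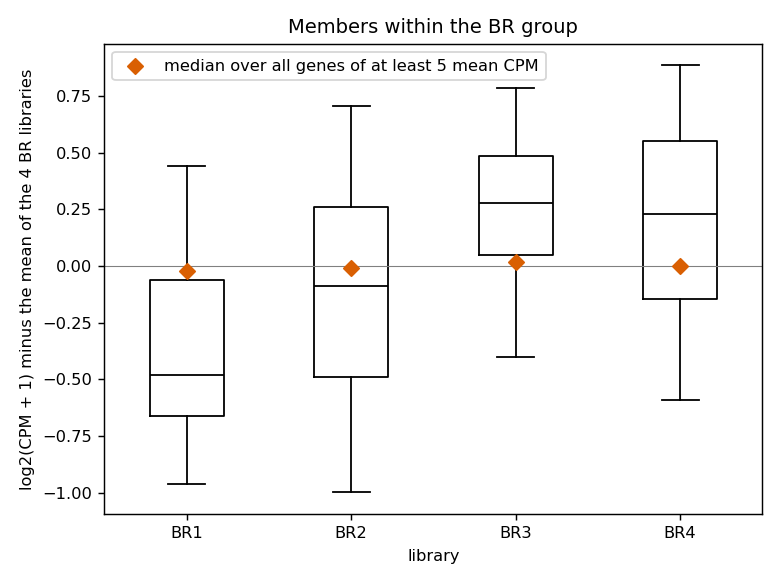
Deviation of log2(CPM + 1) from the mean of the 4 BR libraries for the 150 members, by BR library (box, quartiles and median; whiskers, 5th to 95th percentile); diamonds are medians over all 19405 genes. The member medians are -0.48 and -0.09 in BR1 and BR2 and 0.28 and 0.23 in BR3 and BR4, while those of all genes lie within 0.02 of 0.

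Within R, most members were highest in R2. R2 exceeded R1 in 135 of 150 members, against 50.6% of all genes and 70.5% of those with both R1 and R2 above both R3 and R4. R2 was the highest of all 8 libraries in 102 members, against 10.9% of all genes and 28.4% of those with the same order of pairs. A BR library was the highest in 41 members, against 53.0% and 63.9%, and R1 in 7, against 3.75% and 7.74%. The choice of genes with high R1 and R2 favours an R library as the highest. How far it accounts for these counts was not tested. R3 exceeded R4 in 86 members, near the 51.1% of all genes and 58.0% of those with the same order of pairs. Member 16, on chromosome 18, had 37.5, 90.3, 67.0 and 51.6 CPM in BR1 to BR4, 8.78 and 129 CPM in R1 and R2, and 0.773 and 0.886 CPM in R3 and R4. R1 and R2 lay on either side of its BR libraries.

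Set against all 4 R libraries, BR seldom differed by the test. All 150 members passed the filter on low counts, and 2 were called lower and 0 higher in BR (adjusted p below 0.05 over 29508 genes, edgeR quasi-likelihood test). Of all tested genes 18.3% were called, 10.3% lower and 7.98% higher. The choice of members with a wide spread in R enters the error of this test, so the low count is not read as a result about the members. At an unadjusted p below 0.05 there were 6 lower and 8 higher members, against 10058 of the 29508 genes in either direction. DESeq2 called 5 members lower and 6 higher, against 3993 lower and 3220 higher of the 39870 genes with a p-value. No filter on low counts preceded it, so this total is unlike the 29508 genes of edgeR. Without R2, the edgeR test called 21 members higher, against 3463 of 30033 genes. R2 is high in the members by choice, so leaving it out lowers their R mean and can favour such calls. R1 is high by choice as well, and without R1 the test called 1 member higher, against 1711 of 30130 genes. How far the choice accounts for the 21 calls was not tested. The median log2 fold change of the members was 0.01, with 77 above 0 and 73 below 0, and over the 19403 tested genes of at least 5 mean CPM it was -0.09.

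Both genes that were called fell in BR. Glyma.19G227800.Wm82.a2.v1, member 70 on chromosome 19, had 0.33, 0.521, 0.482 and 1.08 CPM in BR1 to BR4, 21.2 and 25.4 CPM in R1 and R2, and 5.34 and 2.11 CPM in R3 and R4. All BR libraries, with 5 to 18 counts each, were below all R libraries. It averaged 0.604 ± 0.33 CPM in BR and 13.5 ± 11.5 CPM in R (SD, n = 4 each; log2 fold change -4.66, SE 0.8; edgeR adjusted p = 0.00569). It was lost in limma-voom, with a log2 fold change of -4.12 and an adjusted p of 0.0676; over all alternatives its adjusted p lay between 5.12e-10 and 0.0676.

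The other, Glyma.10G062200.Wm82.a2.v1, was member 122 on chromosome 10. It had 13.7, 16.3, 16.4 and 17.3 CPM in BR1 to BR4, 62.7 and 93.7 CPM in R1 and R2, and 18.3 and 20.4 CPM in R3 and R4. BR lay just below R3 and R4, without overlap with any R library. It averaged 15.9 ± 1.53 CPM in BR and 48.8 ± 36.3 CPM in R (SD, n = 4 each; log2 fold change -1.82, SE 0.48; edgeR adjusted p = 0.0282). It passed in 11 of 21 alternatives. Among these were the fits with R3 and R4 left out and with R1 and R2 left out (edgeR adjusted p = 0.000593 and 0.0482). These fits were chosen after seeing the data and leave out a pair that the rule used, so they are not support. Member 122 was not called when BR1, BR2, BR3, BR4 or R1 was left out, with edgeR adjusted p-values of 0.0767, 0.0596, 0.073, 0.068 and 0.062. Over all alternatives its adjusted p lay between 0.000593, with R3 and R4 left out, and 0.119. Members 70 and 122 were the 2 members (1.33%) with all BR below all R. This arrangement was found in 8.72% of all genes and in 4.46% of those with both R1 and R2 above both R3 and R4. The wide gap within R, set by the choice of members, makes it less likely.

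In the opposite direction, 8 members (5.33%) had all BR libraries above all R libraries. This arrangement occurred in 19.6% of all genes and in 25.2% of those with both R1 and R2 above both R3 and R4. The choice of members makes it less likely too, so the low share is not read as a result about them. Some of the 8 also passed the mean of at least 5 CPM only through BR. Members 91, 132 and 144 averaged 4.85, 4.22 and 4.24 CPM in R, against 16.3, 13.4 and 21.6 CPM in BR. For these, the filter itself favoured high BR values. The test called 0 of the 8 members. Member 72, on chromosome 15, had 198, 166, 129 and 108 CPM in BR1 to BR4, 60.9 and 104 CPM in R1 and R2, and 16.9 and 13.4 CPM in R3 and R4 (log2 fold change 1.43, SE 0.58; edgeR adjusted p = 0.111). The BR and R ranges nearly met, at 108 CPM in BR4 and 104 CPM in R2. Member 144, on chromosome 16, had the largest fold change of the members toward BR, with 10.1, 32.2, 23.7 and 20.4 CPM in BR1 to BR4, 5.04 and 10 CPM in R1 and R2, and 0.703 and 1.16 CPM in R3 and R4 (log2 fold change 2.14, SE 0.68; edgeR adjusted p = 0.053).

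In 12 members (8.0%) the BR libraries were not all above R3 and R4. Member 19, on chromosome 11, had 13.7, 28.6, 32.6 and 33.1 CPM in BR1 to BR4, 210 and 146 CPM in R1 and R2, and 28.8 and 23.2 CPM in R3 and R4. Its BR libraries lay around R3 and R4 and far below R1 and R2 (log2 fold change -2.13; edgeR adjusted p = 0.051). Member 82, on chromosome 19, was spread widely within BR, with 0.33, 0.231, 3.2 and 30.9 CPM in BR1 to BR4, 72.1 and 78.2 CPM in R1 and R2, and 21.1 and 16.7 CPM in R3 and R4. BR4 lay between the R pairs and the other BR libraries below both (log2 fold change -2.65, SE 1.17; edgeR adjusted p = 0.14).

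A few members were among the abundant nodule transcripts. Per length, the mean over the 8 libraries ranged from 1.06 to 5592 FPKM among members with a median of 9.99 FPKM, close to the 9.0 FPKM of all genes of at least 5 mean CPM. Above a mean of 100 CPM lay 13 members (8.67%), against 7.86% of all genes. Member 89, on chromosome 14, had the highest mean FPKM of the members. It had 5572, 4718, 5240 and 5756 CPM in BR1 to BR4, 4605 and 5148 CPM in R1 and R2, and 1417 and 1188 CPM in R3 and R4. Its BR libraries and R1 and R2 lay close together (log2 fold change 0.58, SE 0.45; edgeR adjusted p = 0.388).

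Member 61, on chromosome 12, had the highest mean CPM, with 3990, 5534, 5503 and 4704 CPM in BR1 to BR4, 5152 and 8030 CPM in R1 and R2, and 1405 and 1009 CPM in R3 and R4. Its neighbour in identifier order was also a member. This was member 99, with 918, 1167, 2564 and 2842 CPM in BR1 to BR4, 2703 and 3368 CPM in R1 and R2, and 769 and 853 CPM in R3 and R4. BR1 and BR2 were low for member 99 but not for member 61. Without the 5 members of highest mean CPM, the share of the counts was 0.443% to 0.707% in BR, 0.706% and 1.1% in R1 and R2, and 0.172% and 0.154% in R3 and R4. The low shares in R3 and R4 follow from the choice of members.

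The members lay on all 20 chromosomes. Chromosome 6 held 18 (12%), against 5.77% of all genes, chromosome 11 held 14 (9.33% against 5.16%) and chromosome 12 held 12 (8.0% against 4.39%), while chromosome 9 held 2 (1.33% against 4.93%). The set chosen by the same rule turned round, higher in R3 and R4, held 16 of its 150 genes on chromosome 6 as well, 7 on chromosome 11 and 2 on chromosome 12. These shares were not tested. Of the members, 5 pairs were direct neighbours among the 19405 genes, on chromosomes 2, 5, 6, 8 and 12, and the set turned round held 4 such pairs. Whether these neighbours are near-identical copies that share reads is not known from the sources used here, so the values of each are uncertain to that extent.

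Members were on the shorter side. Their median length was 1591 bases, against 1931 bases over all genes, and 46 of 150 were longer than that median. R3 and R4, in which the members are low, were the libraries with more reads from long genes. With the length trend of each library removed, the same rule returned 136 of the 150 members, and in 136 of its 150 genes all BR libraries lay above R3 and R4.

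The arrangement was not particular to the top of the list. Among genes with both R1 and R2 above both R3 and R4, the share with all BR above R3 and R4 was 85.3% at ranks 151 to 300, 86.7% at ranks 301 to 600 and 58.5% at ranks 2401 to 5063. The share in the gap declined with each class, as the gap itself became narrower, to 20% at ranks 151 to 300 and 0.113% at ranks 2401 to 5063. The set of 150 genes higher in R3 and R4 than in R1 and R2 had all BR libraries below the lower of R3 and R4 in 115 genes (76.7%) and above the higher of R1 and R2 in 73 (48.7%). Its BR libraries filled the gap in 40 genes, compared with 36 members. Over the 7724 genes with both R3 and R4 above both R1 and R2, these shares were 48.1% below, 39.2% above and 6.07% in the gap. In both sets, BR was separated more often from R3 and R4 than from R1 and R2. The same lean was present in those 7724 genes and in the 5063 genes with the other order of pairs, at 67.0% against 18.7%. The difference between the sets was not tested.

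**Figure D5:**
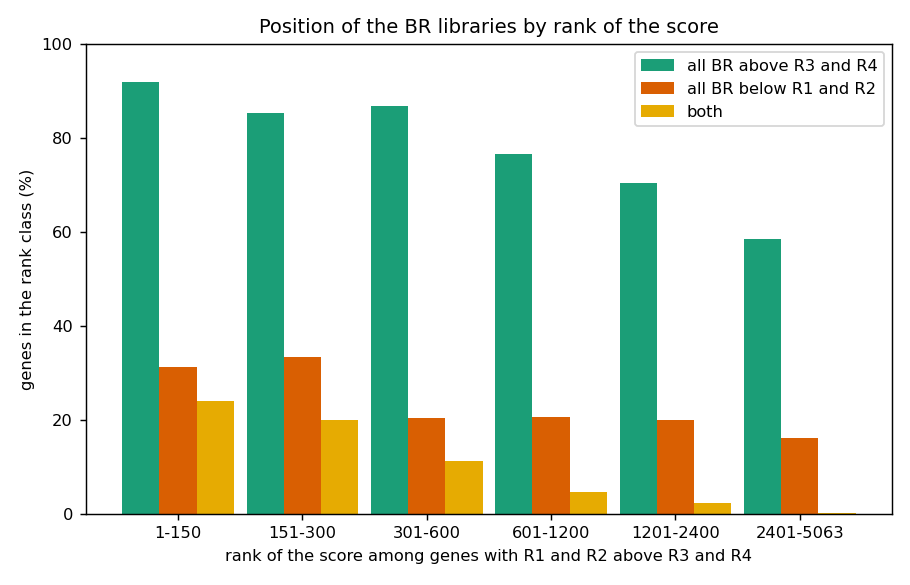
Percentage of genes in each rank class of the score with all BR libraries above R3 and R4, with all BR libraries below R1 and R2, and with both. The first class holds the 150 members, with 92.0%, 31.3% and 24.0%; the classes cover the 5063 genes with both R1 and R2 above both R3 and R4.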

How the data were processed

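The authors deposited raw read counts per gene, 1 column per library, and FPKM, which are counts scaled to gene length and library total. Per the submitters' processing notes, which give no roles, the tools were HTSeq 0.6.0, HISAT2 2.1.0, Bowtie2 2.2.3, TopHat2 and CASAVA. Genome build and strandedness are not given in the sources used here; overlapping genes therefore cannot be told apart. Identifiers carry Wm82.a2.v1, and 0 of 43517 matched the reference table (Glycine_max_v4.0), so the description lists, tissue markers and promoter motifs that had been planned were not applied, and names were limited to 4 identifiers: the 2 highest scores and the members called in BR against R. Other members are described by rank, from the top 20, both sides of the end of the list, the highest mean CPM and the extremes of position or fold change; those chosen by position were picked after their values were seen. The members and lists were chosen with earlier results of these data known.

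Gene lengths were recovered as counts over FPKM and total. BR was compared with R in edgeR 4.0.16 (R 4.3.3): filterByExpr (minimum count 10, minimum total 15), TMM, quasi-likelihood F test, no covariates, Benjamini-Hochberg adjustment. SE is the fold change over the square root of F. The fit was tested on simulated data. Any pair of libraries of a group differed by more than counting noise (chi-square per degree of freedom at least 6.76 among BR and 11.7 among R). Positions of BR were counted in CPM, without a test. Alternatives were DESeq2 1.42.0, limma 3.58.1 (voom, and log2 FPKM with pseudocounts of 1 and 0.1), other scalings and filters, a replicate block, single libraries left out, and other settings of the rule.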

Additional observations from a re-analysis of the deposited data

Results flagged for a closer look

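The libraries of each group were searched for 1 far from the others, 96 groups of 4 in all. The search covered the members described, those with an unusual position of BR, and the summed and median member CPM. Chance flags about 1 in 20 of groups that were not selected, and the flags below are fewer than that. The rule used the R values, so this rate does not hold for the R groups, among them that of member 16. For member 16, on chromosome 18, R2 had 129 CPM, where R1 had 8.78 CPM and R3 and R4 had 0.773 and 0.886 CPM. Its BR libraries had 37.5 to 90.3 CPM. For member 82, on chromosome 19, BR4 had 30.9 CPM, where BR1, BR2 and BR3 had 0.33, 0.231 and 3.2 CPM. Its R libraries had 16.7 to 78.2 CPM.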

How the results depend on the processing

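Chosen after seeing the data were the settings with the length trend removed, with the members as chosen under other scalings, and without 2 of the R libraries. The position of the BR libraries stayed within 1.5 times of its main percentages in all settings: all BR above R3 and R4 in 84.7% to 96.0% of the members, below R1 and R2 in 28.0% to 44.0%, and in the gap in 16.0% to 36.0%; without 1 BR library the ranges were 92.0% to 94.0%, 33.3% to 38.7% and 26% to 31.3%. The shares of all genes under these settings are not given here. Calls of BR against R moved more. Over all genes 5409 were called, 2848 to 7333 without 1 library, 3554 with R3 and R4 left out and 10237 with R1 and R2 left out. Of the members 2 were called lower, and of the 29508 tested genes 3054. With DESeq2 it was 5 members, of 149 given a p, and 3993 of 39870 genes. With limma-voom it was 1 member and 2918 of 29508 genes. With FPKM it was 1 member at either pseudocount, and 1464 and 1512 of 39910 genes at pseudocounts of 1 and 0.1. Without 1 library it was 1 to 5 members and 1539 to 3870 genes. It was 1 member without BR1, BR2, BR3 or R1. It was 4 members and 1973 genes without R3, and 5 members and 1890 genes without R4. Called higher were 0 members and 2355 of 29508 genes. With library totals alone these were 3 and 4291 of 29508, and with limma-voom 4 and 2410 of 29508. With DESeq2 they were 6 and 3220 of 39870, and without a filter 1 and 2238 of 39910. With FPKM they were 6 and 4417 of 39910 at a pseudocount of 1, and 7 and 4358 at 0.1. With FPKM above a mean of 1 they were 9 and 4314 of 25273. Without 1 library they were 0 to 21 members and 1282 to 3463 genes. This was 1 member and 1711 of 30130 genes without R1, and 21 and 3463 of 30033 without R2. The choice of members favours higher calls when R1 or R2 is left out, and lower calls when R3 or R4 is. With R3 and R4 left out 30 members were called lower and 1 higher, against 1903 and 1651 of 30880 genes. With R1 and R2 left out these were 2 and 126 members, against 5077 and 5160 of 30873 genes. The choice of members favours these directions, so they show no stability. The replicate block called 4633 of 29508 genes, 2578 lower and 2055 higher, and of the members 2 lower and 7 higher. The correlations between libraries of the same number, as deviations from the group mean, were 0.07, 0.09, -0.08 and 0.09. The labels do not say that the numbers mark pairs. The log2 fold change of Glyma.08G359100.Wm82.a2.v1, 0.09 and not called, was -0.28 to 0.91 without 1 library and -0.78 with R3 and R4 left out; that of Glyma.06G084200.Wm82.a2.v1 was -0.1 with R3 and R4 left out. The cause of these moves was not tested. In R3 and R4 the median member had 49 and 47 counts, which limits the precision of each ratio.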
